A study of Mus musculus with 6 samples.

Results

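Dividing nuclei of the juvenile mouse forebrain were chosen by 2 transcripts of proliferation, Top2a and Mki67. A nucleus was taken as dividing when the unique molecular identifiers (UMIs, each 1 counted RNA molecule) of both genes summed to at least 3, and 476 of 75867 nuclei met this rule. The dividing nuclei were then separated into glial members, which held at least 1 UMI of Pdgfra (196 nuclei), and neuronal-fated members, which held no Pdgfra and at least 2 UMIs of Dlx1, Dlx2 and Sox11 together (91 nuclei). The 189 nuclei that met neither condition are called the remaining members. Because UMIs of these 6 genes made the choice, their levels are descriptions only.

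Cells that divide copy their DNA in S phase with helicases, polymerases and nucleotide-making enzymes, and then separate the copies in G2 and M phase with condensins, kinetochore proteins and spindle motors. Top2a encodes the topoisomerase that untangles DNA before mitosis, and Mki67 encodes a protein that coats mitotic chromosomes. In the postnatal forebrain, oligodendrocyte progenitor cells (OPCs), which carry the PDGF receptor encoded by Pdgfra, keep dividing throughout the tissue, while neurons are still made in the subventricular zone, where Dlx1 and Dlx2 mark the GABAergic lineage, and in the dentate gyrus. Sox11 is a transcription factor of immature neurons.

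Nuclei came from flash-frozen forebrains of littermates at postnatal day 16, 3 wild type (WT) and 3 Npc1-/-. NPC1 exports cholesterol from lysosomes, and the mutants carry the Npc1nih allele, which inactivates the gene in the whole animal, on F1 hybrids of BALB/cJ and C57BL6/J parents. No treatment was given, and RNA was counted by droplet sequencing from the 3' end. The barcodes carry a library number from 1 to 6 but no key to the mice, so the genotypes were not compared, the nuclei form 1 pooled sample, and no test between samples was possible. Libraries are named by their number. Intervals are exact 95% intervals and cover counting error only.

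The 6 libraries held 8215 to 16109 nuclei each, with a median depth of 4471 to 5439 UMIs. Dividing nuclei were somewhat deeper than the other nuclei, with a median of 5898.5 against 4952 UMIs. The share of UMIs from mitochondrial genes had a median of 0.0993% in dividing nuclei and 0.0974% in all nuclei. By a simulated-doublet score, 101 of the 476 dividing nuclei (21.2%) lay among the 10% of nuclei with the highest scores in their library, as did 204 of the 968 resting progenitors described further on. Across libraries, 1264 nuclei shared a barcode sequence with a nucleus of another library, 8 of them dividing.

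Cell cycle genes are commonly described by elements in their promoters, so the 250 bases before the start of transcription are printed for both rule genes and for the G2/M and S phase gene with the most UMIs in the dividing nuclei once the rule genes are left out, Ckap5 and Pola1. Top2a (chr11:99024190-99024439, minus strand), Mki67 (chr7:135716380-135716629, minus strand), Ckap5 (chr2:91526512-91526761, plus strand) and Pola1 (chrX:93632156-93632405, minus strand) are given 5′ to 3′ on the gene's strand from RefSeq, build GRCm38.p6. Capitals mark CCAAT, the box bound by NF-Y, TTTGAA, the core of the cell cycle homology region used by G2/M genes, and the E2F consensus TTTNNCGC with each N a C or a G, on either strand.
Top2a: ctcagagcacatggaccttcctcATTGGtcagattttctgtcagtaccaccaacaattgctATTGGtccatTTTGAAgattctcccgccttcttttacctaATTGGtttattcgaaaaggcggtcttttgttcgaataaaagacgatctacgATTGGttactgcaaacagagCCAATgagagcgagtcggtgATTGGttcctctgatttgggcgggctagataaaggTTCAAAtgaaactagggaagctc
Mki67: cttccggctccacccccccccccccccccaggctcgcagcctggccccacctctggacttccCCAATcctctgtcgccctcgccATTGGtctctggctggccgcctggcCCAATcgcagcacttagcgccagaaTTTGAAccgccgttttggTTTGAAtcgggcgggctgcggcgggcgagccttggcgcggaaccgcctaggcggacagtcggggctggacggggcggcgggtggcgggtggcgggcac
Ckap5: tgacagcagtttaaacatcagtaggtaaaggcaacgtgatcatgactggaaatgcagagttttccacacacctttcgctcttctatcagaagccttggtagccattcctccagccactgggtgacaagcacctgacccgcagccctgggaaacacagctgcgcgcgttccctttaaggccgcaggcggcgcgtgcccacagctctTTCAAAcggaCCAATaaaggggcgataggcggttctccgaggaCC
Pola1: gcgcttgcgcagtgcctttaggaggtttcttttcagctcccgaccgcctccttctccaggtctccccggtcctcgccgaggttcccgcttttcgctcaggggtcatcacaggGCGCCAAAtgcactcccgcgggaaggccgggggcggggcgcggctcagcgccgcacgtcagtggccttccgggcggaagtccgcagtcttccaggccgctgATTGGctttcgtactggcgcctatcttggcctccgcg
The Top2a sequence held 6 CCAAT boxes and 2 TTTGAA elements, and that of Mki67 held 3 CCAAT boxes and 2 TTTGAA elements. Pola1 held an E2F match 138 bases before the start. No capitals of different motifs overlap in these sequences, and the last CCAAT box of Ckap5 runs past the start of transcription.

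Over windows of 250 bases before to 50 after the start, TTTGAA stood in 34 of 52 promoters of the G2/M list (65.4%; 47 of its 55 genes were matched), in 5 of 37 promoters of the S phase list (13.5%; 33 of 45 genes matched) and in 17.9% of all 32851 promoters. The E2F consensus was instead most frequent in the S phase list, with 14 of 37 S phase promoters (37.8%), 3 of 52 G2/M promoters (5.77%) and 2.26% of all promoters. CCAAT was frequent in both lists, in 26 of 37 S phase and 39 of 52 G2/M promoters against 37.4% of all. CCAAT and TTTGAA stood together in 51.9% of G2/M promoters, 8.11% of S phase promoters and 6.95% of all promoters. A match describes letters and not binding, and neither the lists nor the motifs were tested against each other.

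Dividing nuclei made up 0.627% of all nuclei (95% interval 0.572 to 0.686). Taken over libraries 1 to 6 in order, the share was 0.712, 0.472, 0.629, 0.632, 0.676 and 0.718%, from 59 to 98 nuclei each. Library 2 was lowest, and its interval of 0.372 to 0.590% overlapped those of the other 5 libraries. The summed Top2a and Mki67 count had a median of 5 and a maximum of 39, with 2061 UMIs of Top2a and 608 of Mki67 in all. Both genes were detected in 311 members, Top2a alone in 153 and Mki67 alone in 12.

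The edge of the rule was not sharp. Just inside, 133 nuclei held 3 UMIs and 84 held 4, and just outside, 252 nuclei held 2 UMIs and 2358 held 1. Pdgfra was detected in 34.6% of the nuclei with 3 UMIs, in 27.8% of those with 2 and in 9.88% of the 72781 nuclei with none. Among 5483 nuclei with at least 3 UMIs of Slc17a7, the vesicular glutamate transporter of excitatory neurons that no longer divide, 23 met the rule (0.419%, interval 0.266 to 0.629). Those 23 had a median of 24209 UMIs against 11948 for all Slc17a7 nuclei. That share, in a type that should lack division and at a greater depth, overlaps in its interval with the share of all nuclei, and how far stray RNA or doublets entered the dividing nuclei was not tested.

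**Figure D1:**
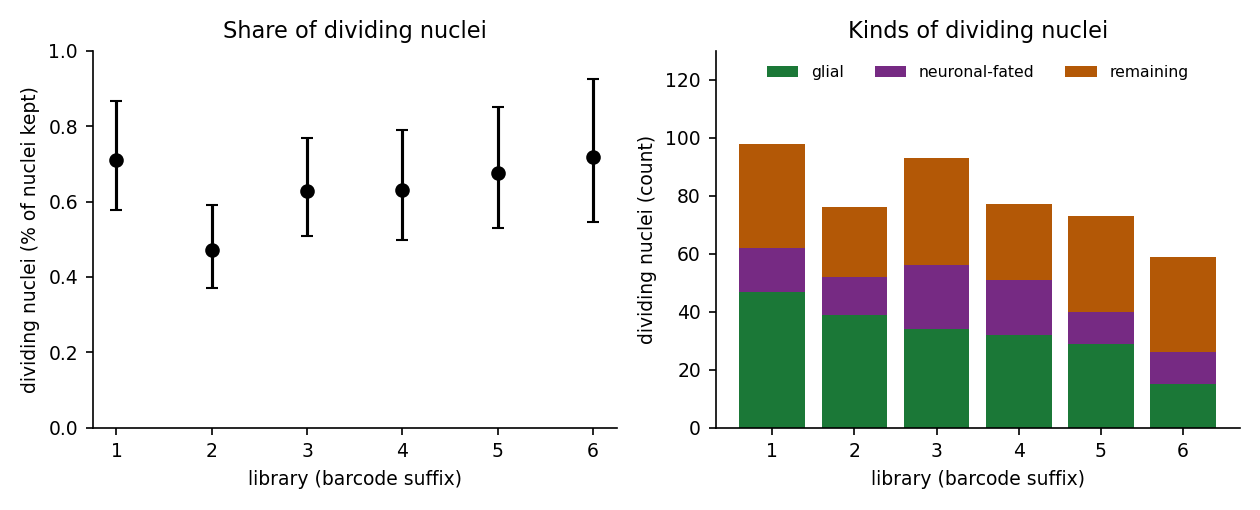
Left, share of dividing nuclei in each library in percent of the nuclei kept (points) with exact 95% intervals (bars); right, number of dividing nuclei of each kind. Shares lie between 0.472% in library 2 and 0.718% in library 6, and the number of glial members falls between 15 in library 6 and 47 in library 1.

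Glial members were 41.2% of the dividing nuclei (interval 36.7 to 45.7), neuronal-fated members 19.1% (15.7 to 22.9) and remaining members 39.7% (35.3 to 44.3). These shares moved with the thresholds: the glial share was 27.3% with 2 UMIs of Pdgfra required, and the neuronal-fated share was 8.54% after thinning each nucleus to 3000 UMIs and 9.87% with 4 UMIs of Dlx1, Dlx2 and Sox11 required. By library the glial share was 48.0, 51.3, 36.6, 41.6, 39.7 and 25.4% in libraries 1 to 6, lowest in library 6, where remaining members were 55.9%. Neuronal-fated shares ranged from 15.1% in library 5 to 24.7% in library 4. Pdgfra of 1 UMI is a weak sign on its own, and 137 of the 196 glial members also held at least 1 UMI of Sox10, Olig1 or Olig2, the transcription factors of the oligodendrocyte lineage. Of the 196, 33 would also have met the Dlx and Sox11 condition, and these were deep, with a median of 16760 UMIs. Among nuclei without Top2a and Mki67, 3.62% met the whole neuronal-fated condition, which also asks for no Pdgfra.

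After each nucleus was thinned to 3000 UMIs, which left 395 of the 476 members, the list of 53 G2/M genes other than Top2a and Mki67 had a median of 12 UMIs per dividing nucleus against 2 in 793 resting progenitors. The list of 45 S phase genes had a median of 4 against 1. Before thinning, the medians in dividing nuclei were 31 and 11.5 UMIs. The G2/M count exceeded the S phase count in 79.0% of dividing nuclei (interval 74.6 to 82.9), in 81.8% of glial, 83.8% of neuronal-fated and 72.7% of remaining members, and in 55.4% of resting progenitors. Both rule genes belong to the G2/M list, so this excess is not independent of the rule.

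Within the kinds of dividing nuclei the lists were related to different degrees. Among 80 neuronal-fated members at equal depth, nuclei with more S phase UMIs also had more G2/M UMIs, with a Spearman coefficient of 0.57. Among 139 remaining members it was 0.33, and among 176 glial members 0.076. These coefficients describe nuclei that share libraries and are given without a test.

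**Figure D2:**
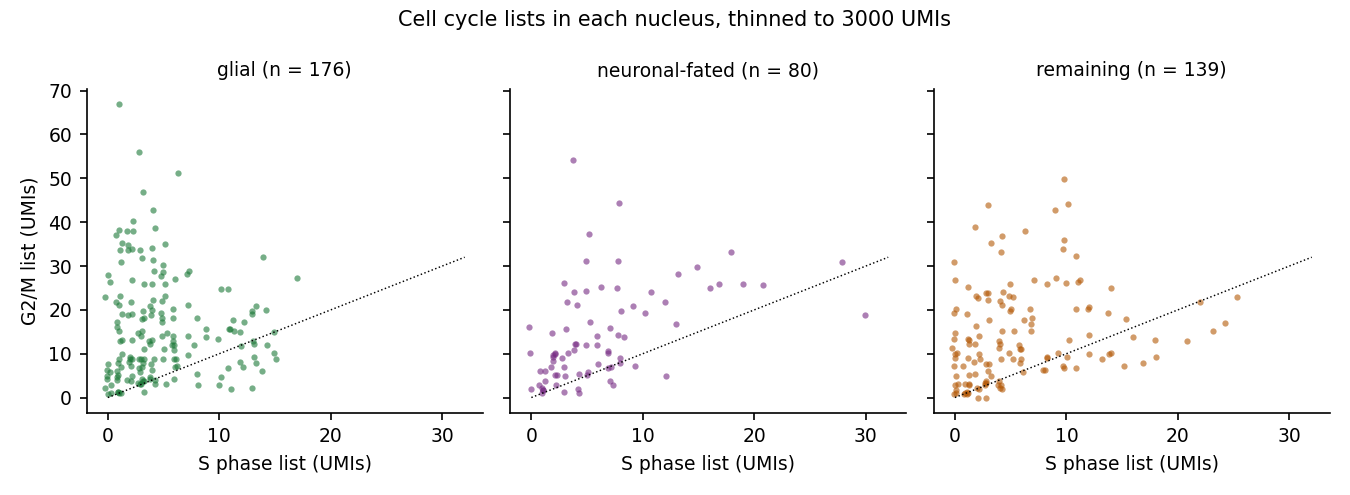
UMIs of the S phase list (horizontal) and of the G2/M list without Top2a and Mki67 (vertical) in each dividing nucleus after thinning to 3000 UMIs, with a random shift of up to 0.3 to part equal values; the dotted line marks equal counts. Most nuclei of each kind lie above the line, and in the glial panel the highest G2/M count of 67 UMIs comes with 1 S phase UMI.

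Glial members were set beside resting progenitors, 968 nuclei with at least 3 UMIs of Pdgfra, at least 1 of Sox10, Olig1 or Olig2 and none of Top2a and Mki67. UMIs were summed over nuclei and given per 1000000 UMIs of the group (CPM), and levels are on that scale. A gene was counted as differing when its level differed at least 2-fold, its counting interval excluded equality and at least 5 of 6 libraries had the same direction. By this rule 467 of 12544 genes with at least 50 UMIs differed (3.72%), 362 higher in glial members (2.89%) and 105 lower (0.837%). The grouping itself separates dividing from nondividing nuclei, so these values describe what comes with Top2a and Mki67. The median log2 ratio of all genes tested was 0.02. A gene low in one group can reach the 50 UMIs through the other group alone and then had to differ, so cell cycle lists are described by the summed level of all their genes and by those genes with at least 50 UMIs in the comparison group by itself.

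Mitotic genes stood far above the resting level. The 22 genes of the kinetochore and spindle checkpoint list summed to 1503 CPM in glial members and 140 in resting progenitors, the 23 mitotic kinesins and spindle genes to 1977 and 231, the 53 G2/M genes to 3433 and 693, and the 17 condensin and cohesin genes to 1484 and 766. Most of these genes were too low in resting progenitors to pass there. Of the 15 G2/M genes with at least 50 UMIs in resting progenitors 10 were higher in glial members and 0 lower, beside 169 of all 11547 genes with that minimum (1.46%), and higher were also 5 of 11 condensin and cohesin genes, 3 of 4 kinesins and spindle genes (Anln, Diaph3 and Nusap1) and both kinetochore genes, Cenpc1 and Cenpp. Kif11, the motor that pushes the spindle poles apart, was at 133, 155, 129, 86.7, 158 and 112 CPM in the glial members of libraries 1 to 6 and at 0 to 3.04 in resting progenitors. The libraries of the groups did not overlap and the pooled log2 ratio was 6.25 (interval 5.42 to 7.22), which describes nuclei chosen for division and, with so few UMIs in resting progenitors, a gene that passed the minimum through the glial members. Knl1, the kinetochore scaffold, stood at 176 against 1.84 CPM. Depdc1a, a mitotic regulator, had 122 UMIs in glial members and 0 in resting progenitors, which against a floor of 3 UMIs was at least 7.05 higher on the log2 scale.

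The DNA replication programme had a smaller ratio than the kinetochore, kinesin and G2/M lists and a larger one than condensin and cohesin genes. The 45 genes of the S phase list summed to 1229 CPM in glial members and 440 in resting progenitors, and of the 16 with at least 50 UMIs in resting progenitors 8 were higher and 0 lower. Of all genes with that minimum 1.46% were higher. Clspn, which relays the replication checkpoint, had 103 UMIs in glial members and 11 in resting progenitors (47.4 against 1.56 CPM, log2 ratio 4.93, interval 4.03 to 5.98), and Brip1, a repair helicase, had 123 and 13. Both genes passed the minimum of 50 UMIs only with the glial UMIs. Pola1, the catalytic subunit of the polymerase that primes each new strand, was at 168 against 67.7 CPM (1.31, 1.11 to 1.51), higher in 6 of 6 libraries. Of the 12 G1/S regulators with at least 50 UMIs in resting progenitors 4 were higher, Ccne2, Lin54, Lin9 and Rbl1, again beside 1.46% of all such genes. E2f7, E2f8, Foxm1 and Mybl2 met the rule from levels below that minimum. E2f7, a repressor of the E2F programme, stood at 36.3 against 1.56 CPM. The D-type cyclin Ccnd1 was at 26.2 in glial members and 34.4 in resting progenitors, a log2 ratio of -0.39 (interval -0.83 to 0.03).

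Of the 11 tested polycomb and H3K27 genes, whose products write or erase methylation of lysine 27 on histone H3, Ezh2 was the gene that met the rule. Of all genes tested 3.72% did. Ezh2 (ENSMUSG00000029687, chr6:47530139-47595341, GRCm38, minus strand), the catalytic subunit, stood at 136, 160, 176, 126, 153 and 112 CPM in the glial members of libraries 1 to 6, and at 40.2 to 57.3 in resting progenitors. The lowest glial library lay above the highest resting library. The log2 ratio was 1.42 (interval 1.20 to 1.64), from 315 and 383 UMIs, and Ezh2 was detected in 69.9% of glial members and 27.6% of resting progenitors. Suz12, its partner subunit, was at 109 against 77.3 CPM (0.50, 0.27 to 0.72), higher in 6 of 6 libraries but below 2-fold. Eed, the subunit that reads the mark, had a log2 ratio of -0.01 (-0.40 to 0.37). The demethylases Kdm6a and Kdm6b had ratios of -0.06 each, with intervals of -0.28 to 0.16 and -0.46 to 0.33. Of 8 DNA methylation genes, Dnmt1, which copies methylation onto the new strand, and Uhrf1, which recruits it, met the rule. Uhrf1 passed the minimum only with the glial UMIs. Of the 7 genes with at least 50 UMIs in resting progenitors 1 was higher, Dnmt1, beside 1.46% of all such genes. Dnmt1 had 81 and 113 UMIs, or 37.3 CPM in glial members (1.22, 0.79 to 1.65), and Uhrf1 was at 18.4 against 2.69 (2.78, 1.95 to 3.65). With Sox10, Olig1 or Olig2 also required of glial members, a condition added after seeing the data, neither met the rule. The ratio of Dnmt1 was then 0.95, and Uhrf1, at 2.69, had 28 and 19 UMIs, under the minimum of 50 for a test. Uhrf1 also fell under that minimum after thinning, without the highest doublet scores and without library 1, 2 or 3, with ratios of 2.67 to 3.13.

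OPC lineage genes lay lower in dividing than in resting nuclei, most by less than 2-fold. All 14 OPC markers that the rules did not use had negative log2 ratios (median -0.49, beside 0.02 for all genes tested). Of the 14, 1 met the rule, C1ql1, beside 0.837% of all genes lower. Lhfpl3 was at 2127 CPM in glial members and 3413 in resting progenitors (-0.68, -0.73 to -0.64), lower in 6 of 6 libraries, and the proteoglycan Cspg4 at 90.6 against 123 (-0.44, -0.67 to -0.21). Resting progenitors had to hold 3 UMIs of Pdgfra and glial members 1, so the resting group was chosen more strictly. Among 13 committed and immature oligodendrocyte markers 1 met the rule, Dusp15, which was lower, again beside 0.837% of all genes. The growth factor receptor gene Erbb3 was at 5.06 against 11.9 (-1.23, -2.29 to -0.32). Dusp15 fell short of the rule without library 2 (-0.75). Erbb3 fell short when members had to hold 5 rule UMIs (-0.65), and when glial members also had to hold Sox10, Olig1 or Olig2.

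Cholesterol genes met the rule in few cases, beside 3.72% of all genes tested. Of 20 synthesis genes 0 were higher and 1, Hsd17b7, was lower, with a median log2 ratio of -0.08. Hsd17b7 had 11 and 76 UMIs and fell short of the rule without library 1 (-0.64). Of the transport genes 0 of 14 met the rule in either direction. Npc1 itself was at 47.8 CPM in glial members and 47.7 in resting progenitors (0.01, -0.33 to 0.33), with the mutant and WT mice pooled.

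Markers of other cells moved with this contrast. Endothelial markers summed to 1332 CPM in glial members (libraries 852 to 2491) and 611 in resting progenitors (148 to 1061), with 6 of 10 genes higher and no gene of the list at 0 in either group. The 8 pericyte markers tested had a median log2 ratio of 0.67, and none met the rule. In the other direction, fibroblast markers summed to 130 in glial members and 210 in resting progenitors, and macrophage markers summed to 8.74 in glial members (libraries 0 to 13.8) and 46.4 in resting progenitors. When glial members also had to hold Sox10, Olig1 or Olig2, a condition added after seeing the data, 431 of 12337 genes met the rule (3.49%), 332 higher (2.69%) and 99 lower (0.802%), and endothelial genes were still higher for 6 of 10. Of genes with at least 50 UMIs in resting progenitors, 10 of 15 G2/M and 7 of 16 S phase genes were higher, beside 1.47% of all such genes. The part of vascular and macrophage RNA in the differences was not tested.

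**Figure D3:**
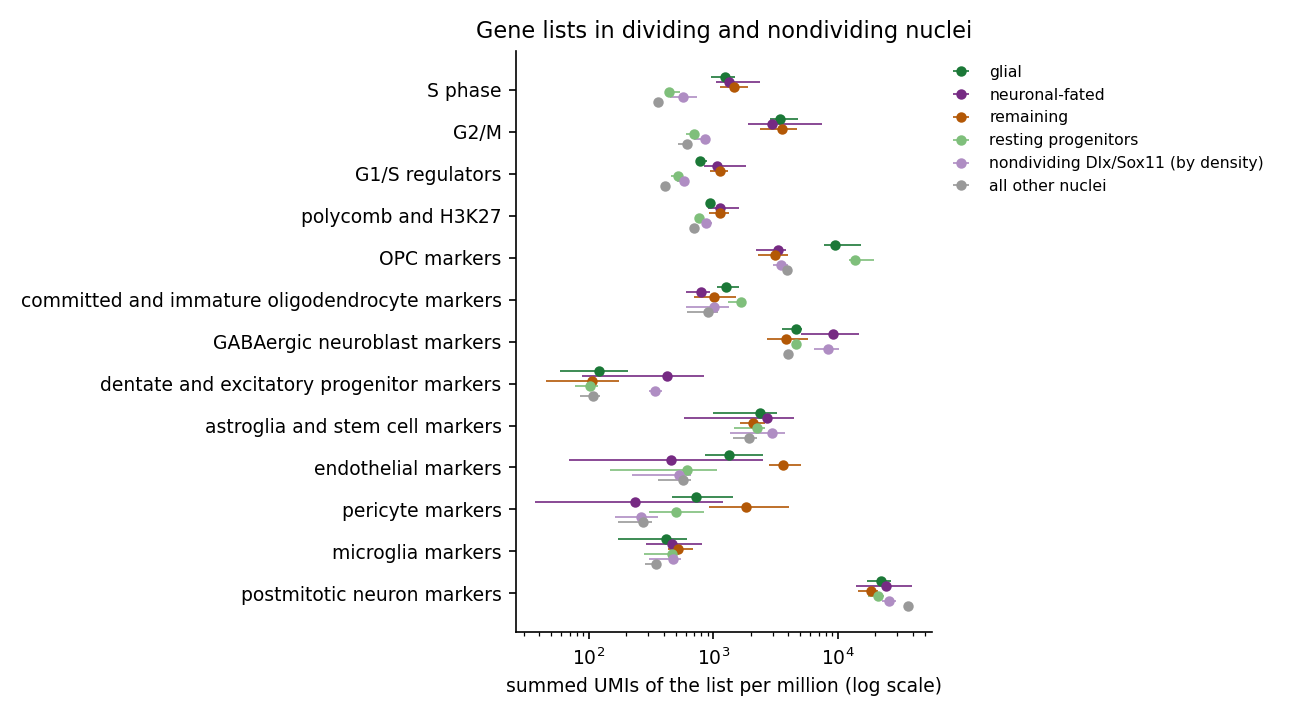
Summed CPM of 13 gene lists (log scale) in the 3 kinds of dividing nuclei, resting progenitors, nondividing Dlx/Sox11 nuclei (taken by density) and all nuclei outside the rule; points are pooled values, lines span the lowest to the highest library, and the OPC and GABAergic lists here include the lineage genes of the rules. The S phase and G2/M lists lie higher in the dividing than in the nondividing groups, OPC markers are highest in resting progenitors and glial members, and endothelial and pericyte markers are highest in the remaining members.

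Glial and neuronal-fated members were compared directly, with the same glial nuclei as above. By the same rule 418 of 9276 genes differed (4.51%), 304 higher in glial members (3.28%) and 114 higher in neuronal-fated members (1.23%). Genes that the rule did not use followed the lineages. Of 15 tested OPC markers, 12 were higher in glial members, with a median log2 ratio of 1.87 beside -0.01 for all genes tested. Cspg4 had 197 UMIs in glial and 14 in neuronal-fated members, and Sox10 had 187 and 22. Both passed the minimum of 50 UMIs only with the glial UMIs. Lhfpl3, with 4624 and 284 UMIs, passed it in each group. List counts of this comparison were not limited to genes with that minimum in 1 group by itself. Of 16 GABAergic neuroblast markers, 10 were higher in neuronal-fated members, with a median of -1.24. Dlx6os1, the long noncoding RNA of the Dlx5 and Dlx6 locus, stood at 866, 578, 525, 308, 646 and 138 CPM in the neuronal-fated members of libraries 1 to 6 and at 36.0 to 175 in glial members. The highest glial library lay above the lowest neuronal-fated library, and within each library the neuronal-fated value was higher. Library 6, the lowest, held 11 neuronal-fated members with a median of 4008 UMIs, and 1 of them had 151526. Meis2, a homeobox gene of the striatal and olfactory lineage, was at 1464 against 529.

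Among G1/S regulators 2 of 15 met the rule, Ccnd2 and Cdk4, both lower in glial members, beside 1.23% of all genes tested. Ccnd2, the D-type cyclin of neural precursors, stood at 284, 323, 415, 255, 589 and 115 CPM in neuronal-fated members of libraries 1 to 6 and at 61.8 to 126 in glial members. Only library 6 of the neuronal-fated members overlapped the glial range, and the log2 ratio was -1.69 (interval -1.95 to -1.44), lower in glial members in 6 of 6 libraries. The value of library 6 includes the nucleus with 151526 UMIs among its 11 neuronal-fated members. Cdca7, a replication-linked chromatin factor that is induced by MYC and E2F, was at 11.0 in glial and 71.4 in neuronal-fated members (-2.69, -3.40 to -2.04), with no overlap between libraries. It had 24 and 96 UMIs, so it passed the minimum of 50 only with the neuronal-fated UMIs, and its library values rest on few UMIs. Cdk4, the kinase partner of D-type cyclins, had 33 and 41 UMIs (-1.01, -1.71 to -0.31), barely past 2-fold, and Cdk6 was at 49.7 and 94.4 (-0.93, -1.31 to -0.55), just under 2-fold. The Cdk4 call was lost without library 3 (-0.61) and without library 2 (-0.91), and under both other scalings (-0.99 each). Egfr, the growth factor receptor of transit-amplifying cells, was at 85.1 against 216 (-1.34, -1.62 to -1.07).

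Neither lineage held the higher mitotic sum in every library. The G2/M list summed to 3433 CPM in glial and 2965 in neuronal-fated members, a log2 ratio of 0.21 (interval 0.16 to 0.27), but 1 of its 46 tested genes met the rule and the library ranges overlapped (2826 to 4770 and 1892 to 7395). The sum was higher in glial members in libraries 1, 4 and 6 and lower in libraries 2, 3 and 5, and with 5 rule UMIs required the pooled ratio was 0.45. The S phase list summed to 1229 and 1331, a ratio of -0.11 (-0.20 to -0.03). Ratios were above 0 for 20 of 21 kinetochore genes (median 0.47) and 22 of 23 kinesin and spindle genes (median 0.37). The median of all genes tested was -0.01. In each list 2 genes met the rule, Cenpn and Zwilch, and Kif18b and Kif2c, beside 3.28% of all genes higher. Without library 5 the ratio of Cenpn was 0.95 and without library 4 that of Zwilch 0.90, so each call was lost. Kif18b, a motor that trims astral microtubules, was at 57.0 against 19.3 CPM (1.56, 0.94 to 2.23). Neuronal-fated sums leaned on few nuclei, since a single nucleus of library 6 held 151526 UMIs, 11.3% of all UMIs of the 91 members. Ezh2 was at 145 in glial and 191 in neuronal-fated members (-0.40, -0.64 to -0.16), lower in glial members in 6 of 6 libraries and below 2-fold.

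Summed vascular markers were higher in glial than in neuronal-fated members. By the rule these were 8 of 10 endothelial genes and Atp13a5 and Rgs5 of the pericyte list, beside 3.28% of all genes tested. By nucleus, at least 5 UMIs of the endothelial list were present in 12.2% of glial (interval 8.01 to 17.7) and 11.0% of neuronal-fated members (5.40 to 19.3). Cspg4, which also met the rule, is in both the pericyte and the OPC list. Without it the pericyte list summed to 629 CPM in glial and 226 in neuronal-fated members. Pdgfra, which chose the glial members, is also expressed by fibroblasts. Fibroblast markers summed to 130 CPM in glial and 36.4 in neuronal-fated members, with Bnc2, Col1a2 and Ranbp3l higher by the rule. The whole list had 49 UMIs in neuronal-fated members, so these genes passed the minimum for a test only with the glial UMIs. Endothelial markers summed to 1332 in glial members and to 456 in neuronal-fated members, where libraries spanned 69.2 to 2487 and library 2 was highest. At least 5 UMIs of microglia markers were present in 36.3% of neuronal-fated and 21.4% of glial members and in 12.9% of nuclei outside the rule, at median depths of 7471, 6075 and 4952 UMIs. The part of these cells' RNA in the other differences was not tested.

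**Figure D4:**
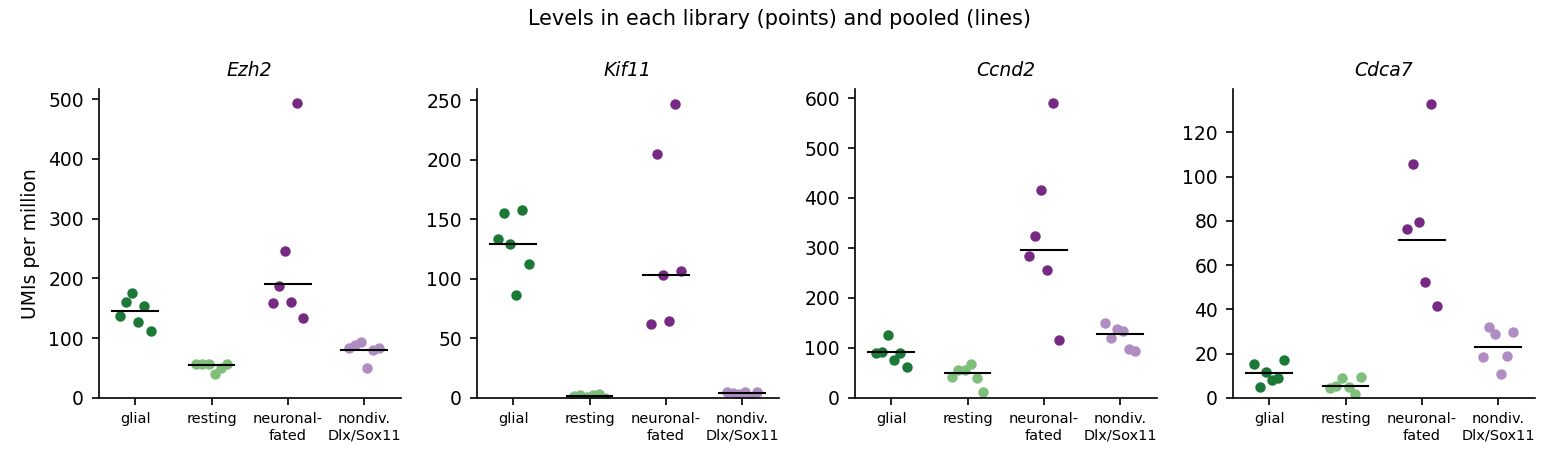
CPM of Ezh2, Kif11, Ccnd2 and Cdca7 in glial members, resting progenitors, neuronal-fated members and nondividing Dlx/Sox11 nuclei (taken by density); each point is 1 library from 1 on the left to 6 on the right, and lines are pooled values. Ezh2 and Kif11 are high in both dividing kinds, while Ccnd2 and Cdca7 are highest in neuronal-fated members, where library 5 gives the top value of each gene.

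The neuronal-fated members were not uniform, although this split was made after their values were seen. Dlx1 or Dlx2 was detected in 70 of 91, and Sox11 alone had admitted the other 21, which were deeper (median 12364 against 6757.5 UMIs) and of which 9 came from library 3. Pooled, the Sox11 nuclei held more of the dentate and excitatory progenitor list, at 884 against 260 CPM, but it was higher in libraries 3 (1424 against 312) and 4 (785 against 135) and lower in libraries 1, 2, 5 and 6. Libraries 1 to 6 held 1, 4, 9, 4, 2 and 1 of the Sox11 nuclei, so the order in each library rests on few nuclei. Neurod1, a proneural factor of granule neurons, had 33 UMIs in them and 5 in the Dlx nuclei (95.3 against 5.01 CPM). Prox1, the fate gene of dentate granule cells, had 109 and 84 (315 against 84.1), Neurod2 had 35 and 7, and the intermediate progenitor gene Eomes had 5 and 2. Igfbpl1 of the same list had 70 and 120 UMIs (202 against 120 CPM). Insm1 went the other way, with 2 and 12 UMIs and an interval of the ratio that includes equality. Igfbpl1 and Prox1 held the most UMIs of the list in the Sox11 and in the Dlx nuclei. Genes of the GABAergic set did not all move with the split. Meis2 was at 1741 CPM in the Dlx nuclei against 664 in the Sox11 nuclei, and Dlx6os1 at 625 against 118. Dcx was at 182 against 168 and Sox4 at 132 against 142, with intervals of the ratio that include equality. Markers of vascular cells moved with the split, with the endothelial list at 1167 CPM in the Sox11 nuclei (5872 in library 2) against 209 in the Dlx nuclei and the pericyte list at 491 against 148, and their part in it was not tested. At least 5 UMIs of dentate and excitatory progenitor markers were present in 24.2% of neuronal-fated members (22 of 91), 5.10% of glial members and 1.41% of the nuclei outside the rule. Median depths of these groups were 7471, 6075 and 4952 UMIs, and the part of depth was not tested. Nor was it tested whether nuclei that reached the list are dentate or excitatory progenitors. Ependymal markers followed the same order of groups, at 17.6, 8.16 and 4.86%.

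To set dividing against nondividing nuclei of this lineage, 192 nuclei with at least 4 UMIs of Dlx1, Dlx2 and Sox11 and with none of Pdgfra, Top2a and Mki67 were used first. The label of neuroblast went against the markers of this group. Its median depth was 12947 UMIs, and a single nucleus of library 1 held 342380 UMIs, 9.43% of all UMIs of the group. Its markers of postmitotic neurons summed to 39668 CPM against 24398 in neuronal-fated members. A further group, added after these values were seen, took 713 nuclei with at least 2 such UMIs, at least 4 per 10000, and a median of 3726 UMIs, in which those neuron markers summed to 25526. Markers of other cells differed from each group. Microglia markers summed to 464 CPM in neuronal-fated members and 192 in the first group, and astroglia and stem cell markers to 2692 and 1207. Mature oligodendrocyte markers summed to 886 in neuronal-fated members and 1833 in the density group, where 4 of 11 met the rule as lower in neuronal-fated members (3.56% of all genes), and fibroblast markers to 36.4 and 142. The part of these cells' RNA in the differences was not tested. Against the first group 757 of 9825 genes met the rule (7.7%), 601 higher (6.12%) and 156 lower (1.59%), around a median log2 ratio of 0.20 over all genes. The 2 further scalings moved that median to -0.08 and -0.09 and the split to 332 higher and 458 lower, and to 323 and 477. Against the density group 516 of 10078 genes met the rule (5.12%), 157 higher (1.56%) and 359 lower (3.56%).

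Mitotic genes were again high in the dividing nuclei, which were chosen for division. Knl1 was at 128 CPM in neuronal-fated members, 1.38 in the first nondividing group and 3.09 in the density group, and Kif11 was at 103, 2.75 and 3.77. The G2/M list summed to 2965 CPM in neuronal-fated members, 576 in the first group and 861 in the density group, and the S phase list to 1331, 398 and 573. Of genes with at least 50 UMIs in the comparison group by itself, 7 of 10 G2/M and 7 of 11 S phase genes were higher than in the first group (3.68% of all such genes), and 4 of 12 and 5 of 14 higher than in the density group (0.582%). Ezh2 was at 191 against 50.1 and 79.5, Ccnd2 at 296 against 73.6 and 128, Cdk6 at 94.4 against 16.3 and 26.4, and Egfr at 216 against 37.2 and 79.5. These 4 genes met the rule against each group. Of the GABAergic neuroblast list 0 of 18 tested genes met the rule against the density group, beside 5.12% of all genes tested. Against the first group 4 of the 15 genes of this list with at least 50 UMIs there were higher, beside 3.68% of all such genes. Both nondividing groups were themselves chosen by UMIs of Dlx1, Dlx2 and Sox11. Dcx, a microtubule protein of migrating neuroblasts, was at 178 in neuronal-fated members and 167 in the density group, and Gad1, a GABA-synthesizing enzyme, at 111 and 143.

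The remaining members, which met neither lineage condition, held more vascular RNA than the other members. A comparison with the glial and neuronal-fated members together was added after seeing the data. It counted 807 of 11011 genes (7.33%), 607 higher (5.51%) and 200 lower (1.82%), and 2 further scalings gave 500 higher and 295 lower, and 491 and 301. All 10 endothelial markers (median log2 ratio 1.79) and 7 of 8 tested pericyte markers (median 1.87) were higher, beside a median of 0.07 over all genes. Lower OPC markers (10 of 16) come with a comparison group chosen in part for Pdgfra. Flt1, a VEGF receptor, stood at 869, 335, 656, 481, 1053 and 721 CPM in the remaining members of libraries 1 to 6, and Pdgfrb, the PDGF receptor of pericytes, at 180, 127, 62.3, 83.3, 178 and 85.7. In nuclei outside the rule the libraries spanned 92.5 to 181 for Flt1 and 14.5 to 21.4 for Pdgfrb, below every library of the remaining members. Of 49 tested G2/M genes 0 met the rule in either direction, with a median log2 ratio of 0.11.

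Nucleus by nucleus, at least 5 UMIs of the endothelial list were present in 50 of 189 remaining members (26.5%, interval 20.3 to 33.3), against 12.2% of glial members, 11.0% of neuronal-fated members and 8.38% of nuclei outside the rule. At least 5 of the pericyte list were present in 41 (21.7%), against 16.3% of glial members (interval 11.4 to 22.3), 5.49% of neuronal-fated members and 5.07% of nuclei outside the rule, but Cspg4 of this list is also an OPC gene. Without Cspg4, a change made after seeing the data, the shares were 21.2% of remaining (interval 15.6 to 27.7), 10.7% of glial (6.76 to 15.9), 5.49% of neuronal-fated members and 4.78% outside the rule. With Cspg4 kept, the lists overlapped in 34 nuclei, 16 were endothelial alone and 7 pericyte alone, so 57 nuclei reached at least 1 of the 2 lists. Flt1, a gene of the list that chose them, was at 1383 CPM in the 50 endothelial-positive nuclei and at 1510 in endothelial-positive nuclei outside the rule, high in both by that choice, and Knl1 was at 114 and 1.57. No vascular, fibroblast or myeloid list was reached in 104 nuclei. Those were shallow, with a median of 3727.5 UMIs, and held Kif11 at 192 and Ezh2 at 247 CPM. OPC markers summed to 5389 and GABAergic neuroblast markers to 5726 in them, against 3881 and 4011 CPM in nuclei outside the rule, 3327 and 9112 in neuronal-fated members and 9435 and 4568 in glial members. These sums include the lineage genes of the rules, of which Pdgfra was at 0 in these members by the rule and Dlx1, Dlx2 and Sox11 were held low by it.

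**Figure D5:**
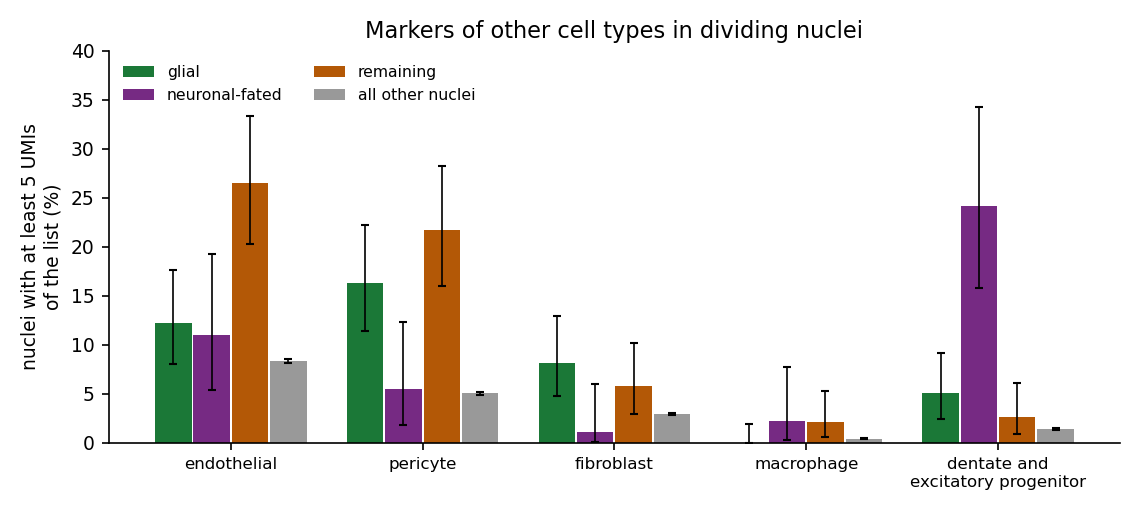
Percent of nuclei with at least 5 UMIs of each marker list in the glial, neuronal-fated and remaining members and in all nuclei outside the rule; bars start at 0 and lines are exact 95% intervals. Endothelial markers reach 26.5% and pericyte markers 21.7% of remaining members, and dentate and excitatory progenitor markers reach 24.2% of neuronal-fated members. Glial and neuronal-fated members had higher median depths than the nuclei outside the rule.

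The genes with the highest ratios in the remaining members came from few nuclei. Fbln5, Bcam, Myl9, Tinagl1 and Des, which encode matrix, adhesion and contractile proteins, led the comparison with log2 ratios of 4.39 to 4.99. Of the 231 UMIs of Fbln5, 136 lay in 1 nucleus of library 2 that held 90853 UMIs in all, and the same nucleus carried 189 of 343 UMIs of Myl9 and 850 of 1226 UMIs of Acta2, the actin of smooth muscle. Without the 3 nuclei richest in each gene, 18 UMIs of Fbln5 and 34 of Myl9 were left. Among members with at least 5 UMIs of Top2a and Mki67, Fbln5 had 4 UMIs in remaining and 8 in the other members, and its log2 ratio was 0.59. Acta2 was higher in 3 libraries and lower in 2, so it did not meet the rule, and like the split by nucleus it was examined after its values were seen.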

How the data were processed

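The deposited data were whole-number UMI counts per gene and nucleus, pooled into 1 matrix of 75878 barcodes and 32285 genes. The study's methods name an aligner and cell filters, among them a mitochondrial threshold of 10%. The matrix still held 11 barcodes at or above that share, so which filters were applied before deposit is not known. The tools named differ between sources: Cell Ranger 2.1.1 in the submitters' processing notes, Cell Ranger 6.0.0 in the file header and STARsolo in the study's methods, on mm10 (GRCm38). Barcodes with a mitochondrial share of 10% or more were removed (11). Members and gene lists were chosen with earlier results of these data known.

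UMIs were summed over the nuclei of a group and given per 1000000 (CPM). Ratios carry exact binomial intervals at the 95% level, shares Clopper-Pearson intervals, and a gene at 0 in one group a floor of 3 counts. Genes with under 50 UMIs over both groups and the rule genes were left out. List counts limited to genes with 50 UMIs in the comparison group were added after seeing the data, for the comparisons with nondividing nuclei only. The call rule (2-fold, interval excluding equality, 5 of 6 libraries) was run on simulated sums of UMIs with known fold changes and counting noise alone. Variation between nuclei or libraries was not simulated, so false calls from it were not measured. The genes named are list members, plus up to 12 called genes per direction with the largest ratio, leaving out mitochondrial, ribosomal, Gm and Rik models. For phases, each nucleus was thinned to 3000 UMIs. Scrublet called at most 1 barcode per library, so its calls were not used and no nuclei were removed as doublets here. The study's methods name removal of multiplets with DoubletFinder, but whether this step was applied to the deposited matrix is not known. Why so few barcodes were called was not tested. The top 10% of Scrublet scores per library served as an alternative. Other alternatives were TMM (edgeR 4.0.16) and median-of-ratios (DESeq2 1.42.0) scaling, other thresholds and leaving out each library. Python 3.11.15, scipy 1.17.1, scanpy 1.11.5 and R 4.3.3 were used. Positions are from GENCODE and promoters from RefSeq (GRCm38.p6).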

Additional observations from a re-analysis of the deposited data

How the results depend on the processing

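The share of dividing nuclei was 0.960% at 2 UMIs, 0.341% at 5 UMIs, 0.410% with both genes required, 0.293% after thinning to 3000 UMIs and 0.549% without the highest doublet scores, and 0.609 to 0.669% with 1 library left out. The glial share was 36.5% at 2 and 46.7% at 5 rule UMIs, 27.3% with 2 UMIs of Pdgfra and 28.8% with Sox10, Olig1 or Olig2 also required (added after seeing the data), and 39.3 to 43.4% without 1 library. The neuronal-fated share was 8.54% after thinning and 9.87% at 4 UMIs of Dlx1, Dlx2 and Sox11 (18.0 to 20.1% without 1 library). Counts of differing genes moved with the filter and with thinning: at 200 UMIs they were 149 for glial against neuronal-fated, 119 for glial against resting, 206 for neuronal-fated against nondividing and 274 for remaining members, and with no filter 757 for the first and 1257 for the third. Thinning gave 291, 434 and 269 for the last 3. The third rose to 1137 without high doublet scores, and the last fell to 533 at 5 rule UMIs. Without 1 library the counts spanned 418 to 456, 386 to 512, 643 to 990 and 580 to 866. The S phase ratio of glial to neuronal-fated members was -0.38 after thinning and -0.016 at 5 rule UMIs (-0.18 to -0.045 without 1 library), and the G2/M ratio 0.45 at 5 rule UMIs (0.12 to 0.31). Ezh2 in glial against resting nuclei was 1.71 after thinning and 1.72 at 5 rule UMIs (1.38 to 1.48). The cause of these moves was not tested. No direction of a named, called gene was reversed in the alternatives run. Genes under 50 UMIs were not tested, and the comparisons of neuronal-fated members rest on 91 nuclei. No paired analysis was possible by mouse, because the labels' mouse numbers have no key to the barcodes. The kinds of nuclei share the same 6 libraries, and the call rule counts the direction in each library. Values could be paired within libraries, but the groups were chosen by the counts themselves and no such test was made.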
